A study of Mus musculus with 2 samples.

Results

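The interferon regulatory factors (IRFs) are transcription factors named for their control of interferon genes. The genes described here carry symbols in the range from Irf1 to Irf9 in the GENCODE M21 annotation: Irf1, Irf2, Irf3, Irf4, Irf5, Irf7, Irf8 and Irf9, which are 8 of the 55536 annotated genes. All of them were present in both libraries. They were measured in bone marrow-derived macrophages of C57BL/6J mice, in RNA depleted of ribosomal RNA. The labels call the RNA fraction nucleoplasmic in one place and nuclear in others. The cells had received Lipid A, the bacterial membrane lipid sensed by Toll-like receptor 4, at 100 ng/ml for 12 h. After a washout of 12 h they met Lipid A again at 100 ng/ml for 30 min. There were 2 libraries of this 1 group, biological replicates 1 and 2, so no effect of Lipid A can be measured and no p-value is given. The age and sex of the mice were not collected, per the labels, and both libraries carry the same donor identifier. No source used here says whether they came from separate mice or cultures, and their spread may be technical.

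IRFs share a DNA-binding domain that contacts GAAA repeats in interferon-stimulated response elements. In macrophages, Toll-like receptor 4 signals through the adaptor Trif to the kinases Tbk1 and IKK-epsilon, which phosphorylate Irf3 and Irf7 so that they switch on type I interferon genes. Secreted interferon then acts through Irf9, which joins STAT proteins in the complex ISGF3 and raises a second set of genes that includes Irf7 itself. Irf1, Irf2, Irf5, Irf8 and Irf4 act in inflammatory gene control or in blood cell lineage choice.

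Replicate 1 held 23845991 gene counts and replicate 2 held 20675294. A count of 0 thus allows up to 3 counts, which equal 0.126 and 0.145 CPM (counts scaled to a common library total). The replicates spread beyond counting error by a biological coefficient of variation of 0.222 over 14345 genes. Mitochondrial messenger RNA took 2.81% and 6.85% of counts, and library building started from 1 µg and 500 ng RNA. All 8 macrophage markers were above 10 TPM (transcript level per length, scaled to a fixed total per library) in both libraries. The other cell types were low: 1 of 8 B cell and plasma cell markers, 1 of 9 dendritic cell markers, 0 of 8 T cell markers and 0 of 8 epithelial markers reached 1 TPM in both.

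Of the 8 IRF genes, 7 reached 10 TPM in both libraries, and the same 7 reached 1 TPM. Among all 22015 nuclear protein-coding genes, 41.8% reached 1 TPM in both. The share of these genes at 10 TPM is not given and can be no larger. Irf7 and Irf1 stood far above the other members and held 82.0% of the family's summed TPM in replicate 1 and 78.0% in replicate 2. That sum was 922 TPM in replicate 1 and 630 TPM in replicate 2.

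Irf7, the amplifier of type I interferon production, had 398 TPM in replicate 1 and 261 TPM in replicate 2 (330 ± 96.6, SD, n = 2). It lies on the minus strand at chr7:141262706-141266481 (mm10). Its level exceeded those of 99.7% and 99.4% of the 13252 protein-coding genes listed above 0 in both libraries. Irf7 was thus among the highest-level messenger genes of both libraries. Irf3, its partner in the first wave of interferon transcription and the factor that Trif signalling reaches directly, lies at chr7:44997648-45002848 on the plus strand. It stood at 32.6 TPM in replicate 1 and 23.7 TPM in replicate 2 (28.1 ± 6.34, SD, n = 2). Both genes were higher in replicate 1 in these alignment-based values. The read-based table, made from the read files instead of the alignments, has them higher in replicate 2, with 154 and 164 TPM for Irf7 and 16.4 and 18.9 TPM for Irf3.

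Irf9, the DNA-binding subunit of ISGF3 (chr14:55603571-55610030, plus strand), was at 25.2 and 23.2 TPM in replicates 1 and 2 (24.2 ± 1.38, SD, n = 2). Its partner Stat2 stood higher, at 226 and 156 TPM. In these alignment-based values Irf9 was close between the libraries and below Stat2 in each of them. The read-based table has Irf9 at 11.2 TPM in replicate 1 and 15.3 TPM in replicate 2.

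Irf1, an activator downstream of interferon-gamma and NF-kappaB (chr11:53770014-53778374, plus strand), had 357 TPM in replicate 1 and 230 TPM in replicate 2 (294 ± 90.2, SD, n = 2). Irf2, which competes with Irf1 for the same DNA element (chr8:46739732-46847458, plus strand), had 40.6 and 31.0 TPM (35.8 ± 6.78, SD, n = 2). The pair was widely separated, with Irf1 above Irf2 in both libraries and no overlap of their ranges.

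Irf5, which acts with Myd88 in the induction of inflammatory cytokines (chr6:29526625-29541871, plus strand), stood at 36.0 and 35.4 TPM in replicates 1 and 2 (35.7 ± 0.417, SD, n = 2). Irf8, a lineage factor of monocytes and macrophages that binds DNA with PU.1 (chr8:120736358-120756694, plus strand), stood at 31.5 and 25.3 TPM (28.4 ± 4.43, SD, n = 2). Irf5 had the smallest SD among the 7 members above 1 TPM.

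Irf4, which is known from lymphocytes, dendritic cells and alternatively activated macrophages (chr13:30749226-30766976, plus strand), was at 0.150 TPM on 26 counts in replicate 1 and at 0.300 TPM on 38 counts in replicate 2 (0.225 ± 0.106, SD, n = 2). These counts are above the floor of 3, but the level exceeded those of only 12.4% and 16.2% of protein-coding genes above 0. The deposited credibility bounds on TPM ran from 0.110 to 0.723 in replicate 1 and from 0.234 to 1.06 in replicate 2. Among markers of cells that use Irf4, 1 of 9 dendritic cell markers (Cd209a) and 0 of 8 B cell and plasma cell markers were at 0 in both libraries. The dendritic cell markers highest in TPM, Ccr9 and Ccr7, had 236 and 56 counts in replicate 1 and 250 and 71 counts in replicate 2. Zbtb46 had 46 and 69 counts in replicates 1 and 2. All other dendritic cell markers had no more than 24 counts in either library. The B cell and plasma cell markers summed to 5.86 and 6.98 TPM and the dendritic cell markers to 3.08 and 4.79 TPM in replicates 1 and 2. Their part in the Irf4 counts was not tested.

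**Figure D1:**
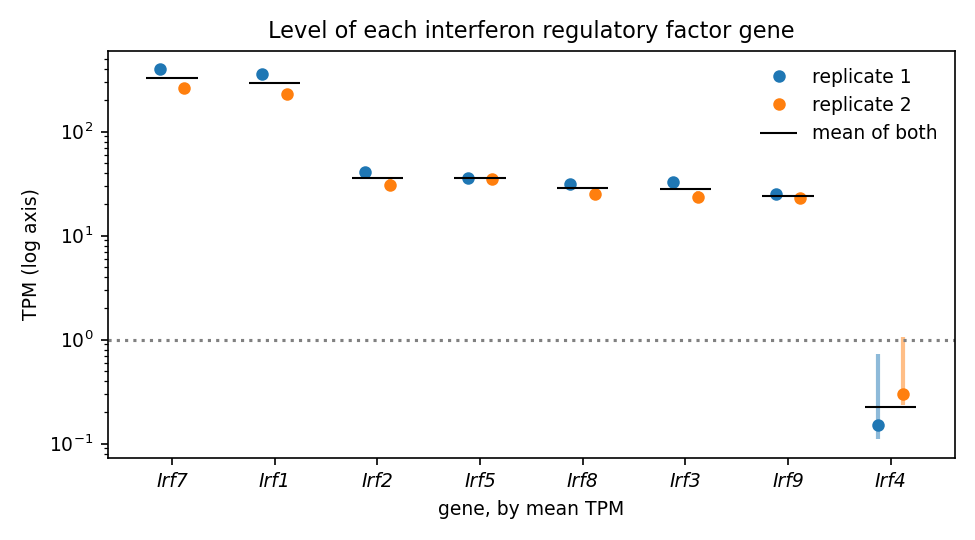
TPM on a log axis for each IRF gene, with replicate 1 in blue, replicate 2 in orange, deposited credibility bounds as vertical lines (mostly hidden by the points) and the mean as a black bar. The dotted line marks 1 TPM: Irf7 and Irf1 stand at a mean of 330 and 294 TPM, 5 members lie between 24.2 and 35.8, and Irf4 is at 0.225.

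In order of mean TPM the family read Irf7, Irf1, Irf2, Irf5, Irf8, Irf3, Irf9 and Irf4. The steps from Irf1 to Irf2, from Irf5 to Irf8 and from Irf9 to Irf4 were free of overlap between the library ranges. Irf7 was above Irf1 within each library, although their ranges over both libraries overlapped. Irf2 and Irf5 changed places between the libraries, as did Irf8 and Irf3, so these neighbours do not differ beyond their spread. Irf3 was above Irf9 within each library, but their ranges over both libraries overlapped. Their credibility bounds overlapped in replicate 2 and not in replicate 1. The deposited TPM of Irf7 and of Irf1 lay above its own upper credibility bound in both libraries. For Irf7 those bounds were 395 and 259 TPM, and for Irf1 354 and 228 TPM. The read-based table gave 248 and 214 TPM for Irf1. Irf1 thus stood above Irf7 in that table, so their order depends on the table.

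For each member, the non-member protein-coding gene with the most similar pair of log2(TPM + 0.1) values was sought over the 2 libraries. Clec2d, at 353 and 255 TPM, was the nearest to both Irf1 and Irf7. Pstpip1 was nearest to Irf2, Rhbdf2 to Irf3, Sgip1 to Irf4, C130026I21Rik to Irf5, Piezo1 to Irf8 and Mafg to Irf9. The Euclidean distances ran from 0.00713 for Irf9 to 0.177 for Irf7. Likeness over 2 libraries is a match in level and says little else.

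Overlaps with other annotated genes limit single values, since no source used here states the strand setting of the counts. Irf1 overlaps Gm17334 on the opposite strand over 907 bases, and the whole of Gm17334 had 2593 and 909 counts. Irf5 overlaps Tnpo3 on the opposite strand over 1045 bases, and the whole of Tnpo3 had 1861 and 1633 counts. Irf8 lies wholly inside Gm20388 on the same strand, and the whole of Gm20388 had 1151 and 1109 counts. Counts within the shared bases alone were not measured. Irf2 overlaps Gm45479, Gm31172 and Gm45481, Irf3 overlaps Bcl2l12, Irf7 overlaps Phrf1 over 45 bases and Irf9 overlaps Rnf31 over 123 bases. Irf4 overlaps no other gene with counts. Reads from such overlaps cannot be told apart here, and all values of the other 7 genes carry that limit.

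The annotation also divides each gene's transcripts into classes, and this RNA fraction held much of several IRF genes in transcripts labelled as retaining an intron. For Irf3 such transcripts took 75.8% of the gene's TPM in replicate 1 and 58.4% in replicate 2. For Irf7 they took 66.7% and 48.7%. These were the highest shares of the family in both libraries. Irf2 had 40.7% and 29.5%, Irf9 40.5% and 33.8%, Irf8 28.8% and 18.2%, and Irf1 20.7% and 16.6%. Irf4 and Irf5 have no annotated transcript of this class, so their shares could not be other than 0. In each of the 6 genes the share was lower in replicate 2.

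Among 2456 protein-coding genes at 10 TPM or more with such a transcript, the median share was 27.9% in replicate 1 and 22.5% in replicate 2. The 6 IRF genes had medians of 40.6% and 31.6%. The Irf3 share exceeded those of 98.2% and 92.0% of these genes, and the Irf7 share those of 95.3% and 85.0%. The Irf1 share exceeded those of 35.9% and 38.2%, below the middle of the distribution. Irf3 and Irf7 thus stood near the upper end, while Irf8 was near the middle at 51.7% and 41.7%. By read-based shares Irf3 exceeded 96.7% and 91.2% of these genes and Irf7 94.8% and 82.4%. Irf8 stood lower by that measure, at 38.9% and 31.2%, as did Irf1 at 15.3% and 21.7%. Irf2 went from 70.9% and 61.9% to 47.3% and 44.7%. Protein-coding transcripts took a median of 59.5% and 66.2% of TPM over the 7 members at 10 TPM or more, against 69.2% and 74.9% over 3278 genes. These gaps depended on the table: the read-based one gave 55.2% and 66.0% for the members and 57.2% and 64.7% over all genes, so that the sign turned in replicate 2. For retained-intron transcripts the median of library means was 36.1% in the members and 25.4% over all genes, and 33.7% and 30.1% in the read-based table. Reads in an intron come alike from RNA that retains it and from RNA not yet spliced, which cannot be told apart in this fraction.

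**Figure D2:**
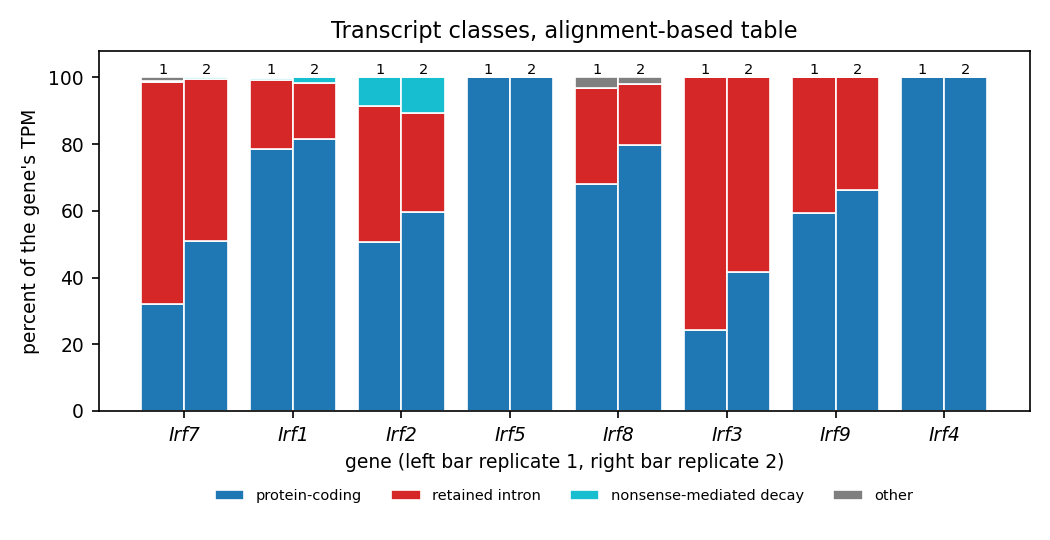
Percent of each gene's TPM in protein-coding, retained-intron, nonsense-mediated decay and other transcripts, with replicate 1 as the left and replicate 2 as the right bar of each gene. Retained-intron transcripts (red) take 75.8% and 58.4% of Irf3 and 66.7% and 48.7% of Irf7, and none of Irf4 and Irf5, which have no such annotated transcript.

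Within Irf7, 1 transcript carried most of that share. Irf7-210, a retained-intron transcript of 1922 bases, had 180 TPM in replicate 1 and 87.7 TPM in replicate 2, which is 45.2% and 33.5% of the gene. The read-based table gave the same shares to within a small margin, 45.1% and 33.4%. The coding transcript Irf7-201, of nearly the same length at 1916 bases, had 53.3 and 60.1 TPM. Irf7-210 was the leading Irf7 transcript in both libraries and in both tables. Irf7-213, a retained-intron transcript that runs through the gene unspliced, had 34.1 and 15.7 TPM.

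Irf7-201 has 9 introns, and intron 5 stood apart from the other 8. The percent of TPM in transcripts that hold intron 5, of those that either hold or splice it, was 69.8% in replicate 1 and 52.2% in replicate 2. The read-based table gave 69.6% and 50.0%. The other 8 introns were held at 9.06% to 15.6% in replicate 1 and at 6.31% to 11.7% in replicate 2. Most of that came from the single unspliced transcript Irf7-213, so these 8 values are not independent of each other. Transcripts that splice out exactly intron 5 summed to 92.7 and 94.6 TPM, while those that hold it summed to 214 and 103 TPM. A longer intron of 165 bases with the same donor, used by Irf7-203, also removes all of intron 5. With every junction that removes intron 5 counted, transcripts without it summed to 143 TPM in each library, and the held share was 59.9% and 41.9%. The other 8 introns stood at 8.94% to 13.8% and at 6.31% to 9.92% by that count. Of the whole TPM of Irf7, 53.8% and 39.6% lay in transcripts that hold intron 5. Only introns that an annotated transcript holds whole were compared, 2638 introns of 1153 genes at 10 TPM or more. Their median held share was 18.1% in replicate 1 and 14.6% in replicate 2. Intron 5 exceeded 84.8% and 80.9% of them, or 87.7% and 82.4% with every removing junction counted, and the rest of these introns lay at or above its level.

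**Figure D3:**
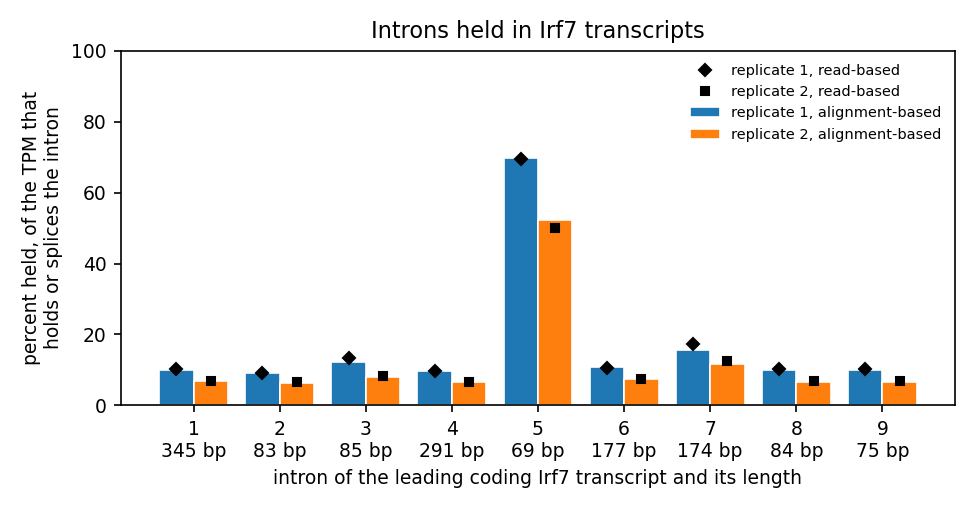
Percent of TPM in transcripts that hold each of the 9 introns of Irf7-201, of the Irf7 transcripts that hold it or splice it at exactly its ends, with lengths in base pairs, as bars for the alignment-based table (replicate 1 blue, replicate 2 orange) and black marks for the read-based table. Intron 5 stands at 69.8% and 52.2%, and no other intron passes 15.6% in the alignment-based table or 17.4% in the read-based table.

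Intron 5 of Irf7-201 spans 69 bases at chr7:141264656-141264724 on the minus strand (mm10) and lies between coding exons. It is the shortest of the 9. Its sequence is shown because it carries the retained share, beside introns 8 and 3 of the same transcript, which have similar lengths of 84 and 85 bases and were held at 9.98% and 12.3% in replicate 1. Capitals mark the first and last 2 bases, the splice donor and acceptor, and the sequences are read from the M21 transcripts that hold them.
Irf7 intron 5: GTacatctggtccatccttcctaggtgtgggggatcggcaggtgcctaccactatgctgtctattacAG
Irf7 intron 8: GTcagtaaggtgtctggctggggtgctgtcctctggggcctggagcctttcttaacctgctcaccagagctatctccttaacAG
Irf7 intron 3: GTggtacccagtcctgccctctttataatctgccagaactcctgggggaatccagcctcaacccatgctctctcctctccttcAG

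All 3 begin with GT and end with AG. Of the first 6 bases, 4 in intron 5 match the common donor pattern of GT, then A or G, then AGT. Introns 3 and 9 match at 3 and the other 6 introns at 5. The GC content of intron 5 was 53.6%, within the range of the other introns from 50.9% to 56.0%. Neither feature set intron 5 at an extreme of the 9.

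For Irf3, intron 5 of Irf3-213 (98 bases, chr7:45000547-45000644, plus strand) was held at 49.5% in replicate 1 and 30.1% in replicate 2, and at 41.4% and 30.4% in the read-based table. It exceeded 79.3% and 70.7% of the 2638 introns. Irf3 was thus high at this intron in replicate 1 and lower in replicate 2. Of the whole TPM of Irf3, 27.4% and 13.4% lay in transcripts that hold this intron. All its retained-intron transcripts took 75.8% and 58.4%, so most of that share lay in transcripts that do not hold this intron. Intron 5 is the only Irf3 intron that an annotated transcript holds whole. All 6 donor bases match the common pattern.
Irf3 intron 5: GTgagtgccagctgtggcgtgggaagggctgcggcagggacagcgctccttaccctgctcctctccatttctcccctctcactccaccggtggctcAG

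For Irf9, introns 5 to 8 of Irf9-205 were all held through the same transcript, Irf9-206, at 21.9% and 22.5%. Its first intron, of 330 bases, was held at 49.2% and 25.4% through Irf9-204, or, with every junction that removes it counted, at 28.6% in replicate 1 and less in replicate 2. Intron 4 of Irf2-201, of 306 bases, was held at 12.1% and 5.26%. The Irf9 introns 5 to 8 were level between the libraries, whereas the other 2 were lower in replicate 2. Irf1 and Irf8 have no intron that an annotated transcript holds whole, so no such value exists for them.

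Irf5 and Irf1 showed how far transcript values depend on the table. The alignment-based table placed 32.0 and 27.9 TPM of Irf5 in Irf5-201, while the read-based table gave that transcript 6.36 and 4.46 TPM and put 10.3 and 19.2 TPM in Irf5-202. Irf1-202 led Irf1 with 182 and 113 TPM in the alignment-based table, against 49.5 and 65.1 TPM in the read-based one. One transcript led in both libraries of both tables for 2 of 7 members, Irf7 with Irf7-210 and Irf8 with Irf8-201. Over 2022 genes this held for 58.5%.

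The replicates were compared by log2 ratios of scaled counts, replicate 2 over replicate 1, where the scaling is by TMM factors and intervals at 95% cover counting error only. Of the 7 members whose counts averaged at least 100, 7 were lower in replicate 2, and 48.2% of 9675 genes at that count were. None of the 7 was beyond 2-fold, as 3.49% of those genes were. Irf7 had 25302 and 12193 counts in replicates 1 and 2, a log2 ratio of -0.86 (-0.89 to -0.82). Irf1 had 19994 and 9831 counts, a ratio of -0.83 (-0.86 to -0.79). These were the 2 lowest ratios of the family, and 3.05% and 3.34% of genes lay lower still.

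Irf3 had a log2 ratio of -0.65 on 977 and 541 counts, and Irf8 -0.57 on 2953 and 1732 counts. Irf5 was at -0.34, Irf2 at -0.32 and Irf9 at -0.29. Irf4, below the count minimum, was the member with a ratio above 0, at 0.74 with an interval from -0.01 to 1.52 that spans 0. The median of the 7 was -0.57, against 0.02 over all 9675 genes. On the TPM scale, that median was -0.39 for the 7 members and 0.27 for nuclear protein-coding genes. On read-based TPM it was 0.04 for the members and 0.77 for nuclear protein-coding genes, so 5 of the 7 changed sign while their median stayed below that of all these genes. Replicate 2 also had the higher mitochondrial share and the smaller RNA input named above, and their part in these ratios was not tested. In bulk RNA, fewer cells with a transcript and less of it per cell cannot be told apart.

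Split by transcript class, the fall in replicate 2 lay more in retained-intron than in protein-coding transcripts. For Irf7, retained-intron transcripts had 16781 and 5800 counts, a log2 ratio of -1.34 (-1.38 to -1.29). Its protein-coding transcripts had 8480 and 6353 counts, a ratio of -0.22 (-0.27 to -0.17). For Irf3, retained-intron transcripts had 663 and 250 counts, a ratio of -1.21 (-1.43 to -1.0), and protein-coding transcripts had 314 and 291, a ratio of 0.09 (-0.15 to 0.32). In both genes the coding transcripts were nearer to level between the libraries.

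The same split gave ratios of -1.35 for retained-intron and -0.36 for protein-coding transcripts of Irf8, and of -0.66 and -0.06 for Irf2. For Irf1 it gave -1.21 and -0.80, so both classes were lower in replicate 2, and for Irf9 -0.32 and -0.28, which differ little. Retained-intron transcripts were lower in replicate 2 in 6 of 6 members and in 73.3% of 2559 genes, with medians of -1.21 and -0.27. Protein-coding transcripts were lower in 6 of 7 members and in 42.5% of 8071 genes, with medians of -0.28 and 0.07. The retained-intron minus protein-coding difference was below 0 in 6 of 6 members and in 70.7% of 2396 genes, with medians of -0.79 and -0.28. The direction is thus common to most genes of these libraries.

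**Figure D4:**
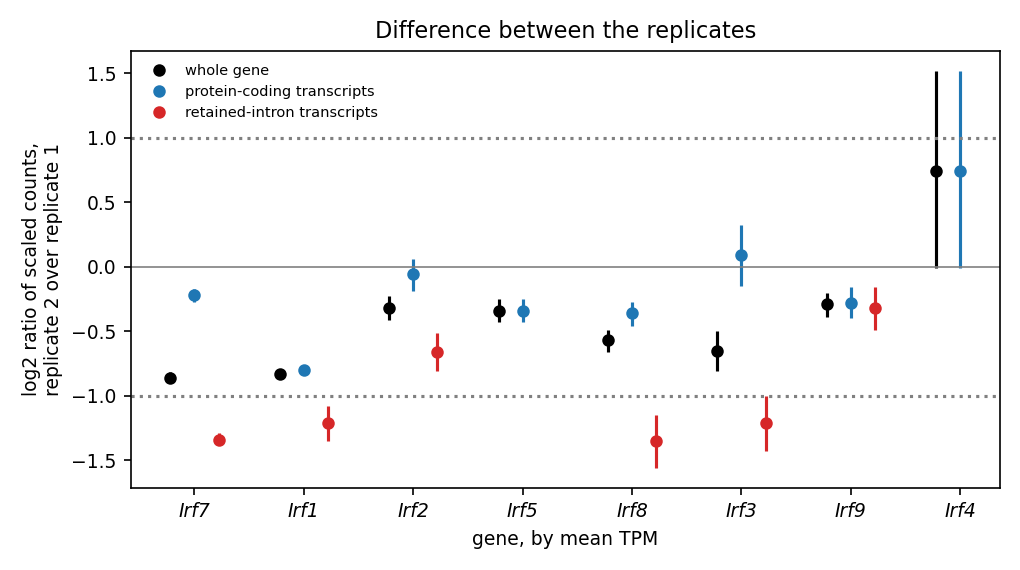
Log2 ratio of TMM-scaled counts, replicate 2 over replicate 1, for the whole gene (black), its protein-coding transcripts (blue) and its retained-intron transcripts (red), with 95% counting intervals. Dotted lines mark 2-fold: retained-intron transcripts of Irf7, Irf1, Irf8 and Irf3 lie below -1, and no whole gene does.

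The promoters of the IRF genes were searched for elements through which interferon, NF-kappaB and PU.1 signals are known to act, since several IRF genes are themselves interferon targets. All 8 genes matched the RefSeq table (GRCm38.p6), with 11 windows from 250 bases before to 50 bases after a start. The motifs, on both strands, were the interferon-stimulated response element GAAANNGAA, the STAT element GAS as TTCNNNGAA, the ETS and IRF composite element EICE as GGAANNGAA, and kappaB. Of all 32817 windows in the table, 8.55%, 8.29%, 8.25% and 8.46% held them in that order. Matches fell in Irf1, Irf2 and Irf8, and none fell in the windows of Irf3, Irf4, Irf5, Irf7 and Irf9, which says only that these letters are not there.

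The 250 bases before the start are shown for the 3 genes with a match, with matches in capitals. In Irf1 (chr11:53769764-53770013, plus strand) a GAS lies at -90 to -82. A kappaB place, which matches the motif on both strands, lies at -13 to -4. In Irf2 (chr8:46739495-46739744, plus strand) an EICE at -247 to -239 overlaps an interferon-stimulated response element at -241 to -233, followed by a GAS at -224 to -216 and a kappaB place at -17 to -8. In Irf8 (chr8:120736108-120736357, plus strand) GAS matches lie at -171 to -163 and -153 to -145. Irf1, among the highest in TPM, and Irf2, near the middle of the family, both held a GAS and a kappaB place, and a match is no evidence of binding.
Irf1 promoter: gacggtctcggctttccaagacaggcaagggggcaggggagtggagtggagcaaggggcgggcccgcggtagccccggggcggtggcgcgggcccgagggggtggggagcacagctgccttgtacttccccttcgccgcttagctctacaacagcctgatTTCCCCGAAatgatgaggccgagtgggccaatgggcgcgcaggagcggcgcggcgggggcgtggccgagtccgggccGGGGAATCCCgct
Irf2 promoter: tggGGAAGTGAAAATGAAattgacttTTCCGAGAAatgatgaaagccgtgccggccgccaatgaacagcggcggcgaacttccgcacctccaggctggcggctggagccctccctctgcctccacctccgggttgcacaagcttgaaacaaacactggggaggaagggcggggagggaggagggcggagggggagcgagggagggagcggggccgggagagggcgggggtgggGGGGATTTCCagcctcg
Irf8 promoter: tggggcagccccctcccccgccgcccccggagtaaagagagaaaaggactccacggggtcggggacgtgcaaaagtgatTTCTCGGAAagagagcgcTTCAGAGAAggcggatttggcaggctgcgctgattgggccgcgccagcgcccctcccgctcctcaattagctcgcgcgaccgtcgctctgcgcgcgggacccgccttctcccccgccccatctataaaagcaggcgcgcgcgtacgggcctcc

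Upstream of the IRFs, all 17 kinases and adaptors reached 1 TPM in both libraries, with medians of 15.2 and 20.8 TPM. Ikbke, which encodes IKK-epsilon, stood out at 308 and 217 TPM. Tank, a scaffold of these kinases, had 54.1 and 68.1 TPM and Tbk1 had 52.4 and 55.0 TPM. Tbkbp1, a Tbk1-binding adaptor, was lowest at 4.23 and 3.73 TPM. Of the 17, 8 were lower in replicate 2 in scaled counts, with a median log2 ratio of 0.04. Among all 9675 genes with a mean count of at least 100, 48.2% were lower. Ikbke was at -0.69 and Tbk1 at -0.34.

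All 8 STAT partners and interferon receptor genes were above 10 TPM in both libraries, with medians of 40.2 and 51.4 TPM. Beside Stat2, given above, Ifnar1, a chain of the type I interferon receptor, had 48.7 and 56.7 TPM. Ifngr2, a chain of the interferon-gamma receptor, was lowest at 14.8 and 19.4 TPM. Stat2, the partner of Irf9, had a log2 ratio of -0.61, while Ifnar1 was at -0.01.

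Of 16 cofactors and modifiers, 15 matched by symbol and 13 reached 1 TPM in both libraries. Spi1, which encodes PU.1, the DNA partner of Irf8 and Irf4, had 36.0 and 39.7 TPM. Irf2bp2, a corepressor that binds Irf2, had 35.1 and 37.4 TPM, and the acetyltransferase gene Ep300 had 34.3 and 38.1 TPM. Spib, a PU.1 relative of B cells and plasmacytoid dendritic cells, was lowest at 0.170 and 0.240 TPM. These 3 leading cofactors stood near Irf2 and Irf5 in TPM and far below Irf7 and Irf1.

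Of 20 interferon genes, 0 reached 1 TPM in both libraries and 15 were at 0 in both, which allows up to 3 counts each. Ifnb1, the interferon gene that Irf3 and Irf7 activate in macrophages, was highest, at 3.57 TPM on 72 counts in replicate 1 and 0.680 TPM on 10 counts in replicate 2. Ifnk had 6 and 2 counts, and Ifng 0 and 5. Near-identical interferon alpha copies share reads and are uncertain.

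Of 30 genes known as targets of one or more IRFs, 27 reached 1 TPM in both libraries, with medians of 110 and 104 TPM. Ccl5 was at 705 and 775 TPM, Rsad2 at 827 and 618 TPM and Tnf at 569 and 754 TPM, with log2 ratios of -0.16, -0.70 and 0.13. Arg1, an Irf4-linked gene of alternatively activated macrophages, was lowest at 0.160 and 0.530 TPM. Mrc1, a marker of the same macrophage state in this list, was at 32.7 and 67.3 TPM. Of 27 targets with a mean count of at least 100, 19 were lower in replicate 2. Over all 9675 genes at that count, 48.2% were lower. The median log2 ratio was -0.52 for the targets, -0.57 for the IRF genes and 0.02 over all these genes. Single targets ran from -1.19 for Mx2 to 1.16 for Il6. Of the 8 macrophage markers, 2 were lower, with a median of 0.11. The lists were chosen with earlier values of these data known and are given as descriptions.

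**Figure D5:**
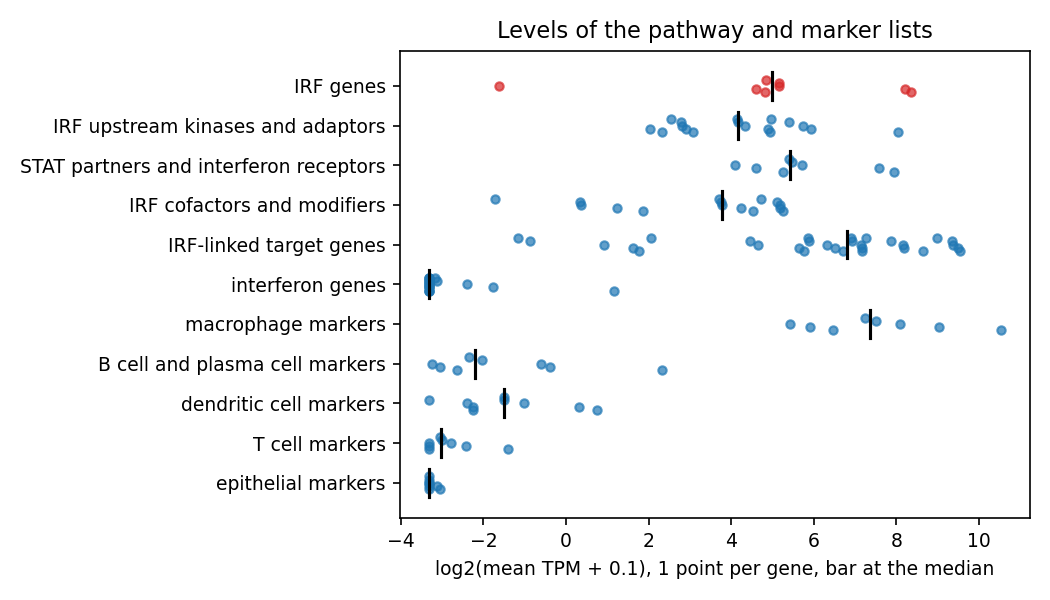
Mean TPM over both libraries as log2(TPM + 0.1), 1 point per gene, for the IRF genes (red, top) and the pathway and marker lists (blue), with a bar at each median. Target genes and macrophage markers stand highest, and interferon genes and markers of other cell types stand near the left edge, where 0 TPM lies.

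Among markers of the other cell types, the highest were Prdm1 at 4.93 and 4.81 TPM and Cd79b at 0.460 and 0.880 TPM for B and plasma cells, and Ccr9 at 1.26 and 1.90 TPM and Ccr7 at 0.830 and 1.45 TPM for dendritic cells. Foxp3 at 0.350 and 0.200 TPM and Lck at 0.170 and 0 TPM led the T cell markers, and Grhl3 and Cdh1, at no more than 0.0300 TPM, the epithelial ones. Lyz2 at 1023 and 1953 TPM, Adgre1 at 416 and 641 TPM and Csf1r at 203 and 342 TPM led the macrophage markers, and Itgam was lowest at 38.0 and 48.5 TPM. Each macrophage marker stood above every marker of the other cell types in both libraries.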

How the data were processed

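Per the file headers, the deposited tables use assembly mm10 and annotation M21. Aligner, quantification tools, versions and strand setting: not given in the sources used here. Deposited by the authors were gene and transcript tables from transcriptome alignments (alignment-based) and a transcript table from read files (read-based). The deposited expected counts are estimated and were rounded to whole numbers here. The deposited TPM is per effective length with a fixed library total, and the deposited FPKM served as an alternative for the count of members detected. The deposited percent of gene TPM per transcript was recomputed from TPM. The annotation matched all 55536 gene rows.

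Members and lists were chosen with earlier results of these data known. A further gene with a symbol in this range, and some genes that the naming rule gave, are not reported here. Levels are mean ± SD of TPM over 2 libraries. Replicate ratios used counts scaled with edgeR 4.0.16 (TMM factors 0.9971 and 1.003) after adding a prior count of 0.5. Genes needed a mean count of at least 100, and Clopper-Pearson intervals (exact, 95%) are given. Reads are not independent molecules, so intervals and floors cover only counting error. The 1 group allows no test between groups. An intron was called held by a transcript when 1 exon spans it, and transcript comparisons used genes at 10 TPM or more. Named genes were all members, the 3 highest and the lowest detected of each list (the 2 highest for other cell types), and each member's nearest gene. Other genes and introns were named after their values were seen. Calculations were tested on simulated data. Alternatives tried were size factors of DESeq2 1.42.0, scaling by library size, another prior count, TPM with pseudocounts of 0.1 and 1, other filters, rescaled TPM, the deposited posterior mean TPM, read-based values and leaving out each library. R 4.3.3 and Python 3.11.15 ran the calculations, with pandas 2.3.3, numpy 2.4.6, matplotlib 3.10.9 and scipy 1.17.1.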

Additional observations from a re-analysis of the deposited data

How the results depend on the processing

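The median log2 ratio of the IRF genes, -0.57, became -0.39 on deposited TPM with a pseudocount of 0.1, -0.38 with a pseudocount of 1, and -0.46 both at a minimum mean count of 10 and without a filter, which add Irf4. The number of members with the same leading transcript in both tables, 2, became 5 by transcript counts and ranged from 2 to 6 with 1 library left out. Rescaling to nuclear protein-coding genes raised all 8 levels by more than 1 SD, for example Irf1 to 1502 TPM from 294 and Irf4 to 1.10 from 0.225. The read-based table moved 5 of 8 levels by more than 1 SD. Irf7 was at 159 against 330, Irf3 at 17.7 against 28.1 and Irf8 at 20.7 against 28.4. Irf9 was at 13.2 against 24.2 and Irf5 at 37.7 against 35.7. The other 3 were lower by less than 1 SD, with Irf1 at 231 against 294, Irf2 at 30.7 against 35.8 and Irf4 at 0.154 against 0.225. The posterior mean TPM put Irf4 at 0.445. Single ratios moved beyond their counting interval for 6 of 8 on TPM and for 1 of 8 in read-based counts, with no sign turned. Chosen after seeing the data, read-based TPM turned the median ratio to 0.04 and the ratios of Irf3 to 0.20, Irf5 to 0.03, Irf7 to 0.09, Irf8 to 0.04 and Irf9 to 0.44, where all nuclear protein-coding genes had a median of 0.77. The read-based table gave 59.8% against 61.0% for the mean held share of Irf7 intron 5, which was 50.9% with every removing junction counted, and -0.73 against -0.79 for the median retained-intron minus coding difference. No paired analysis was possible because there is 1 group. The 26 and 38 counts of Irf4 limit its precision, and 2 libraries limit every SD.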
